A study of Mus musculus with 8 samples.

Results

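The genes described here are the mouse potassium channel genes, taken as every row of the count table whose Entrez identifier belongs to a protein-coding gene with a symbol that begins with Kcn followed by a letter. This name gave 94 of the 27179 genes in the table, of which 77 encode pore-forming subunits, 16 encode auxiliary subunits and 1, Kcnrg, encodes a soluble regulator. RNA was sequenced from 8 whole primary tumours of 4T1.13 cells, a metastatic mammary carcinoma line of BALB/c origin, with 4 tumours in each of 2 groups. Every tumour was grown in the mammary fat pad of young adult female BALB/c mice. By the sample labels, 100000 cells were injected and the tumour was recovered on day 14, while the study's methods name a slightly earlier day. The study's figure legends give a larger number of cells for the 4T1.13 tumours used for growth and immune profiling in these mice. Cells of both groups carried the same lentiviral vector with the mCherry reporter and a hygromycin resistance gene. In the miR-21-KD group this vector also expressed, from the H1 promoter, a decoy RNA that takes up mature miR-21. In the vector control (VC) group it expressed a scrambled RNA. Each line was a pool of clones grown from single cells, so the clones are shared by all tumours of a group and a difference between pools cannot be told apart from the knockdown. The vector acts in the tumour cells, and miR-21 of the host cells was not targeted. The miR-21 gene itself, Mir21a, had 0 counts in all 8 tumours, and its counts could not in any case show the effect of a decoy for the mature RNA.

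Potassium channels let potassium ions leave or enter the cell along their gradient and so set the resting membrane potential, cell volume and the shape of electrical signals. Voltage-gated (Kv) channels open on depolarisation, inward rectifier (Kir) channels pass current best near the resting potential, two-pore-domain (K2P) channels carry a background leak, and calcium-activated (KCa) channels open when calcium rises in the cell. In tumours such channels are present in cancer cells as well as in immune cells, smooth muscle, fibroblasts and nerve, and a whole tumour measures all of these together. In bulk tissue, fewer cells of a type and less RNA per cell cannot be told apart.

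MicroRNAs bind messenger RNAs mainly through their seed, bases 2 to 8, and the seed matches in channel 3′ UTRs are shown first because miR-21 was the molecule targeted. The mature miR-21a-5p of the RefSeq annotation of GRCm38.p6 lies at chr11:86584120-86584141 on the minus strand. It is printed with its seed in capitals.
miR-21a-5p: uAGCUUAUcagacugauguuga
The letters searched on the transcript strand were ATAAGCT, which pairs with bases 2 to 8, and TAAGCTA, which pairs with bases 2 to 7 and has an A opposite base 1. Both occur together in ATAAGCTA. In the longest annotated 3′ UTR of each gene (GENCODE M21, GRCm38), 17 of the 94 potassium channel genes held at least 1 match, or 18.1%, against 2341 of 21037 protein-coding genes, or 11.1%. The 3′ UTRs of the channel genes were longer, with a median of 1746 nt against 960 nt. Of the 17, 8 were counted in enough tumours to be tested, and the windows of the 4 that differed between the groups are printed, with the match in capitals, followed by Kcnmb1, which did not pass the test although its groups did not overlap.
Kcnk6, chr7:29223897-29223920, minus strand: ggtgataaaATAAGCTAagcaata
Kcnd3, chr3:105670890-105670913, plus strand: aaaatacagATAAGCTgttcattt
Kcnk5, chr14:20141174-20141197, minus strand: tgccttgcacTAAGCTAgacattt
Kcnk2, chr1:189208125-189208148, minus strand: aatttgaattTAAGCTAtaaatgt
Kcnmb1, chr11:33973533-33973556, plus strand: tgcaaaacgATAAGCTttctcttg
Kcnk6 and Kcnd3 were higher in miR-21-KD tumours, and Kcnk5 and Kcnk2 were lower. The other 3 tested genes with a match, Kcnq5, Kcne4 and Kcnj15, did not pass the test. Kcne4 held 2 matches. The median log2 fold change was 0.66 over the 8 tested channel genes with a match and 0.49 over the 24 without. Kcnd3, with a match, and Kcnd1, Kcnab1 and Kcnma1, without, reached a testable level in the miR-21-KD tumours alone. They had to be higher and raise these medians, so the medians are not compared further. Among all tested genes with an annotated 3′ UTR, 20.2% of those with a match were higher in miR-21-KD tumours and 20.1% lower, against 20.4% and 20% of those without. A match of letters describes a sequence only and does not show that miR-21 binds there.

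The libraries held 12134849 to 13592695 counts in VC tumours and 12550898 to 12783800 in miR-21-KD tumours, so a count of 0 allows a level of up to 0.221 to 0.245 CPM, a unit that expresses counts relative to the scaled library size, for counting error only. Of the 94 channel genes, 15 had no count in any tumour and 62 in all were too low to be tested, including those 15. The remaining 32 were tested among 14382 genes with the quasi-likelihood test of edgeR, and a gene is called here where the p-value adjusted over all genes tested was under 0.05.

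The channel genes as a set took a similar share of reads in both groups, while single members differed in both directions. Their CPM summed to 362 ± 21.3 (SD, n = 4) in VC tumours and 365 ± 5.77 in miR-21-KD tumours. Of the 32 genes tested, 12 were called, or 37.5%, beside 39.1% of all genes tested. Of these 12, 8 were higher in miR-21-KD tumours (25%, against 19.6% of all genes) and 4 were lower (12.5%, against 19.5%). The share called was thus near that of all genes, and more of the called members were higher than lower. That balance turned to 2 higher, Kcnk6 and Kcnmb1, and 4 lower among the 18 members with at least 10 counts in every tumour. Kcnmb1 was called under that filter only. The share of all genes called under it is not given here, so no background stands beside these counts. Kcnd1, Kcnd3, Kcnab1 and Kcnma1, all 4 among the higher genes, were tested because their level in the miR-21-KD tumours alone passed the filter on low counts, so they had to be the higher ones. With a filter that ignores the groups, a mean of at least 1 CPM, 29 channel genes were tested, of which 7 were higher (24.1%, against 19.7% of all genes) and 4 were lower (13.8%, against 19.5%). The median log2 fold change, miR-21-KD minus VC, was 0.66 over the 32 tested channel genes and -0.01 over all tested genes. The channel median includes the 4 genes that had to be higher, which raises it, so it does not measure a shift of the whole family. The 4 tumours of one group did not overlap those of the other for 9 channel genes that were higher and 5 that were lower, which are the 12 called genes with Kcnmb1 and Kcnh3 added. Over all tested genes the groups did not overlap for 35.2%, made up of 16.3% that were higher and 18.9% that were lower. When the replicate number of the labels was added to the model as a block, 14 channel genes were called beside 45.1% of all genes.

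**Figure D1:**
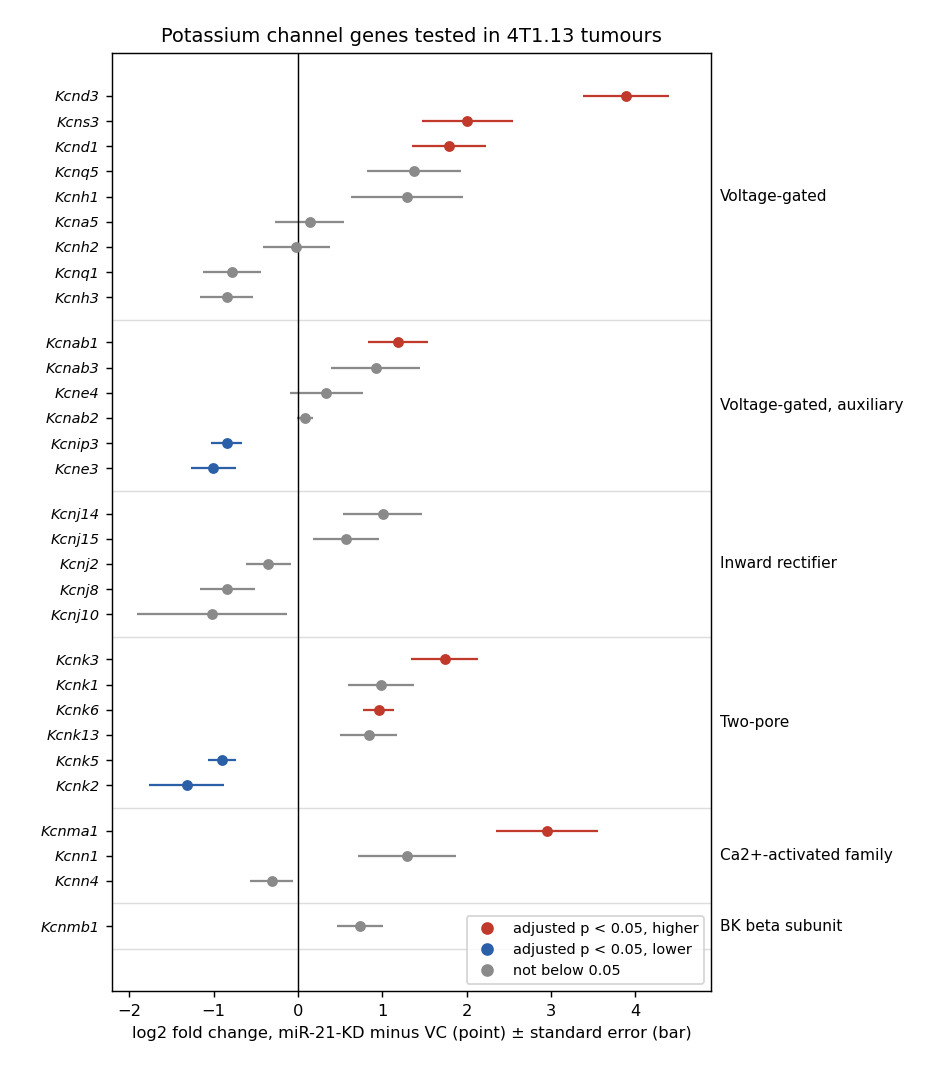
Log2 fold change of 30 tested potassium channel genes, miR-21-KD minus VC (x axis), with its standard error as a bar, by class. The 7 red genes were higher and the 4 blue genes lower at an adjusted p under 0.05, and no inward rectifier is coloured.

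The channel reads came mostly from a few members. Per kilobase of exon, 13 channel genes reached a mean of 1 CPM over the 8 tumours. Kcnab2 (Entrez 16498), a cytosolic beta subunit of Kv1 channels, and Kcnn4 (Entrez 16534), the intermediate-conductance calcium-activated channel KCa3.1 of lymphocytes, macrophages and many epithelia, led this order. Kcnab2 stood at 18.6 ± 2.22 CPM per kilobase in VC tumours and 19.7 ± 0.409 in miR-21-KD tumours, and Kcnn4 at 15.5 ± 2.34 and 12.5 ± 4.71. Together these genes held 45.6% to 58.7% of the channel CPM in a VC tumour and 40.1% to 55.4% in a miR-21-KD tumour. Neither was called, and their groups overlapped. The next levels per kilobase belonged to the leak channels Kcnk6 (5.54 ± 1.05 in the VC group and 10.8 ± 2.21 in the knockdown group), Kcnk5 (9.55 ± 1.60 and 5.11 ± 0.907) and Kcnk2 (5.80 ± 1.22 and 2.32 ± 1.49). Kcnk5 was thus the higher of Kcnk5 and Kcnk6 in the VC means, and Kcnk6 in the miR-21-KD means. Below them came Kcne4, Kcnj8, Kcnk1, Kcnk13, Kcne3, Kcnj15, Kcnj2 and Kcnip3, and no pore-forming Kv gene reached a mean of 1 CPM per kilobase.

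**Figure D2:**
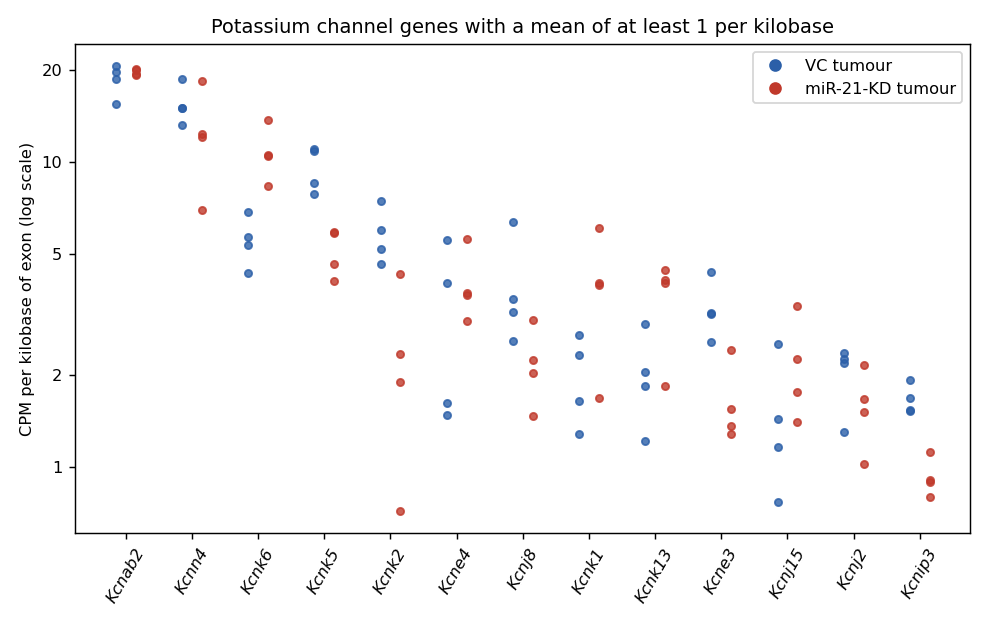
Level of the 13 potassium channel genes with a mean of at least 1 CPM per kilobase of exon (y axis, log scale), in order of the mean, with 1 point per tumour, VC in blue and miR-21-KD in red. Kcnab2 and Kcnn4 have the highest means in both groups, and the tumours of the groups separate for Kcnk6, Kcnk5, Kcnk2, Kcne3 and Kcnip3.

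Among the voltage-gated pore genes, out of 40 members of which 7 had no count, 11 were tested. In miR-21-KD tumours 4 of these were higher (36.4%, against 19.6% of all genes) and 0 were lower by edgeR (against 19.5%). Of the 4, Kcnd1 and Kcnd3 were tested through the miR-21-KD tumours alone. Kv genes that were higher at an unadjusted p under 0.05 numbered 5, and those lower 2. The share of all genes at that level is not given here, so these counts are no result about Kv genes. All 4 called genes were low, with fewer than 4 CPM in every tumour. The class summed to 22.8 ± 3.48 CPM in VC tumours and 32.2 ± 8.07 CPM in miR-21-KD tumours.

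Kcnd3 (Entrez 56543, chr3:105451890-105674002, plus strand) encodes Kv4.3, a pore of the fast transient A-type current of heart and neurons. It stood at 0.147, 0.0798, 0.0788 and 0.327 CPM in the 4 VC tumours and at 2.99, 1.18, 3.25 and 2.43 CPM in the 4 miR-21-KD tumours. All 4 VC tumours lay near the detection limit and every miR-21-KD tumour lay above them. The log2 fold change was 3.89 ± 0.51 (SE), the largest of the tested members, with an adjusted p of 0.00501. The VC counts were 8 in all against 123, a ratio of 15.6 with an exact counting interval of 7.69 to 37 at 95%. Kcnd1 (Entrez 16506, chrX:7823759-7838278, plus strand) encodes the related A-type pore Kv4.1. Its CPM was 0.664, 0.160, 0.709 and 0.409 in VC tumours and 2.34, 1.26, 1.22 and 2.04 in miR-21-KD tumours, without overlap. Its log2 fold change was 1.79 ± 0.44, with an adjusted p of 0.0152. The remaining Kv4 gene, Kcnd2, was not tested and had at most 1 count in a tumour.

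Kcns3 (Entrez 238076, chr12:11090202-11151168, minus strand) encodes Kv9.3, a subunit that forms no channel alone and alters other Kv pores when built into a channel with them. It had 0.811, 0.558, 0.709 and 0.163 CPM in VC tumours and 1.94, 0.865, 3.90 and 2.50 CPM in miR-21-KD tumours, so replicate 2 of the miR-21-KD group lay just above the highest VC tumour. The log2 fold change was 2.01 ± 0.54 (adjusted p = 0.0213). The call for Kcns3 ended when any of 4 tumours was left out, VC replicates 2 (adjusted p = 0.0562) and 3 (0.0521) and miR-21-KD replicates 3 (0.0576) and 4 (0.0538).

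The other 7 tested Kv pores were not called. The highest levels per kilobase in the class were those of Kcnq1 (Kv7.1, which pairs with Kcne subunits in heart and epithelia) and Kcna5 (Kv1.5). Kcnq1 had 3.69, 7.26, 3.23 and 4.09 CPM in VC tumours and 3.80, 1.97, 1.87 and 2.97 CPM in miR-21-KD tumours, with overlap and a log2 fold change of -0.78 ± 0.34 (adjusted p = 0.0957). Kcna5 had 3.32, 2.63, 0.867 and 2.53 CPM against 4.04, 2.28, 1.95 and 2.04 CPM, and its log2 fold change of 0.14 ± 0.41 was smaller than its error. For Kcnh3, an ether-a-go-go-like channel of the forebrain, the VC tumours held 1.55, 1.52, 1.58 and 1.96 CPM and the miR-21-KD tumours 0.970, 0.707, 0.568 and 1.41 CPM. These groups did not overlap, yet the log2 fold change of -0.84 ± 0.31 missed the threshold (adjusted p = 0.0588). Kcnh3 passed in the blocked model (0.0437) and without miR-21-KD replicate 4 (0.0378). Log2 fold changes of Kcnh1, Kcnh2 and Kcnq5 were 1.30, -0.02 and 1.38, with adjusted p-values of 0.145, 0.976 and 0.0763. Kcnh1 passed without VC replicate 1 (adjusted p = 0.0445) and Kcnq5 without VC replicate 4 (0.0267).

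Of the 12 genes for auxiliary subunits of voltage-gated channels, 6 were tested, of which 1 was higher (16.7%, against 19.6% of all genes) and 2 were lower (33.3%, against 19.5%). Kcnab1 (Entrez 16497, chr3:64949212-65378225, plus strand), a beta subunit that speeds inactivation of Kv1 channels, was the higher one. It had 0.664, 0.319, 0.709 and 0.409 CPM in VC tumours and 1.45, 1.57, 0.893 and 0.939 CPM in miR-21-KD tumours, without overlap, and a log2 fold change of 1.19 ± 0.36 (adjusted p = 0.0298). This call was lost when any of 5 tumours was left out, VC replicate 2 (0.0822), 3 (0.0521) or 4 (0.0636) or miR-21-KD replicate 1 (0.0752) or 2 (0.0589), and without the filter on low counts (0.0523). Its abundant relative Kcnab2 had 86.4, 105, 115 and 110 CPM in VC tumours and 109, 112, 111 and 107 CPM in miR-21-KD tumours. These groups overlapped, and the log2 fold change was 0.08 ± 0.10 (adjusted p = 0.516).

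Kcnip3 and Kcne3 were the lower ones. Kcnip3 (Entrez 56461, chr2:127456498-127522094, minus strand) encodes KChIP3, a calcium-binding partner of Kv4 channels that is also known as the transcriptional repressor DREAM. Its CPM was 6.86, 5.42, 5.44 and 5.97 in VC tumours and 3.96, 2.83, 3.17 and 3.21 in miR-21-KD tumours, a clear gap, with a log2 fold change of -0.85 ± 0.18 (adjusted p = 0.0114). Kcne3 (Entrez 57442, chr7:100176507-100184869, plus strand), a single-span subunit that holds Kcnq1 channels open in epithelia, had 4.57, 7.74, 5.67 and 5.64 CPM in VC tumours and 2.75, 2.28, 4.30 and 2.43 CPM in miR-21-KD tumours. The highest miR-21-KD tumour, replicate 3, lay just under the lowest VC tumour. The log2 fold change was -1.005 ± 0.27 (adjusted p = 0.0201), and the call was lost without VC replicate 2 (0.0578) or 3 (0.0501) or miR-21-KD replicate 4 (0.0587). Kcne4, an inhibitory relative of Kcne3, had 10.6, 4.31, 3.94 and 14.8 CPM in VC tumours and 14.9, 9.90, 9.74 and 7.98 CPM in miR-21-KD tumours, with overlap and an adjusted p of 0.556. Kcnab3 had a log2 fold change of 0.92 (adjusted p = 0.189, or 0.0329 without VC replicate 4).

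**Figure D3:**
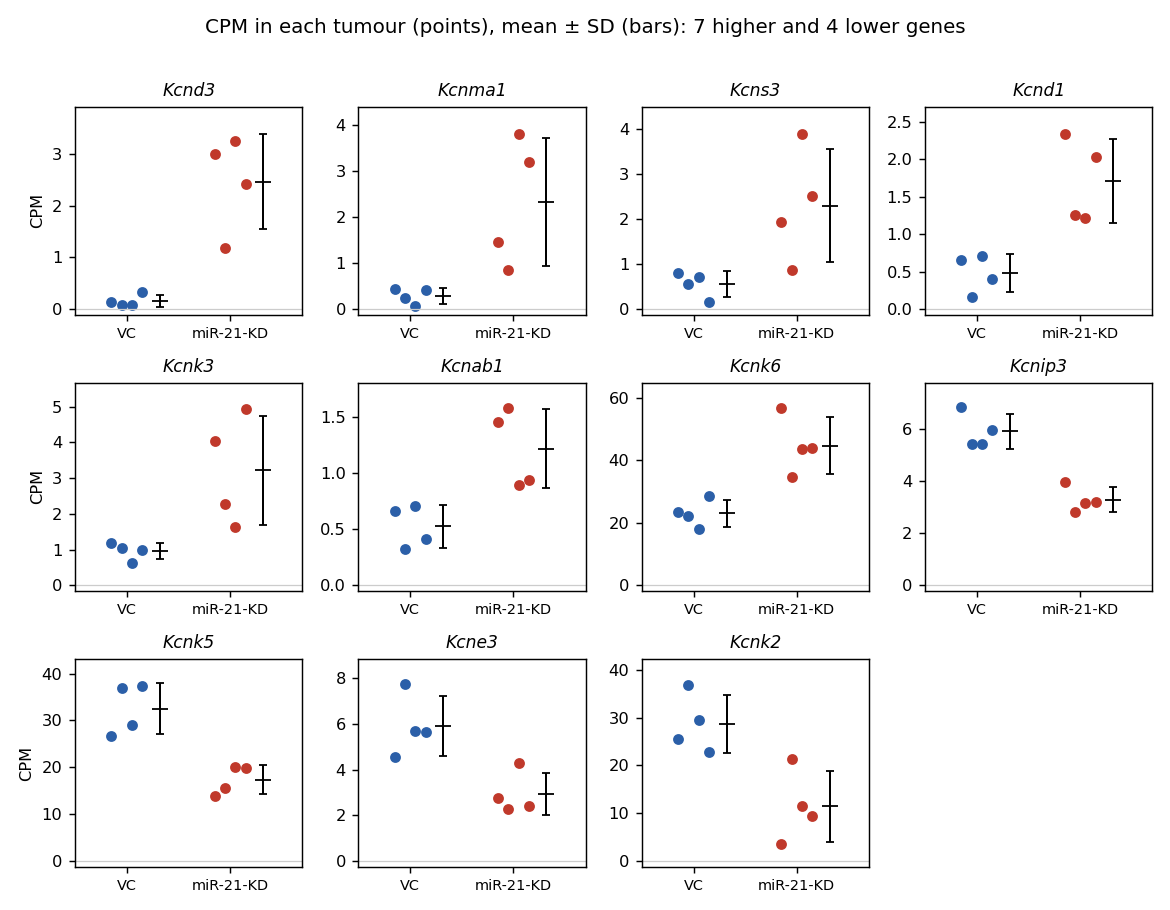
CPM of 11 called potassium channel genes in each tumour (y axis, linear, a separate scale for each gene), VC in blue and miR-21-KD in red, with mean ± SD of 4 tumours beside the points. The first 7 panels hold the higher genes and the last 4 the lower genes, and the points of the groups do not overlap in any panel.

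The two-pore leak channels held most of the called members with sizeable levels. Of 14 members 6 were tested, and 2 were higher and 2 were lower (33.3% each, against 19.6% and 19.5% of all genes). The class sum was 96.1 ± 10.0 CPM in the VC group and 97.5 ± 9.52 CPM in the knockdown group, so the members moved within an almost equal total.

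Kcnk6 (Entrez 52150, chr7:29221928-29232522, minus strand) encodes TWIK-2, found in macrophages and vascular smooth muscle. It had 23.5, 22.1, 17.9 and 28.4 CPM in VC tumours and 56.8, 34.5, 43.4 and 43.8 CPM in miR-21-KD tumours. Every miR-21-KD tumour was above every VC tumour, and the log2 fold change was 0.96 ± 0.18 (adjusted p = 0.00811). Kcnk3 (Entrez 16527, chr5:30588170-30625270, plus strand), the acid-sensitive leak channel TASK-1, had 1.18, 1.04, 0.630 and 0.981 CPM against 4.04, 2.28, 1.62 and 4.93 CPM. Its groups did not overlap, and its log2 fold change was 1.74 ± 0.40 (adjusted p = 0.0128).

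Kcnk5 (Entrez 16529, chr14:20140057-20181782, minus strand) encodes TASK-2, an alkaline-activated leak channel that takes part in volume regulation. It had 26.7, 36.9, 29.1 and 37.4 CPM in VC tumours and 13.9, 15.7, 20.05 and 19.96 CPM in miR-21-KD tumours. All miR-21-KD tumours were below all VC tumours, and the log2 fold change was -0.90 ± 0.17 (adjusted p = 0.00759). Kcnk2 (Entrez 16526, chr1:189207930-189402782, minus strand) encodes TREK-1, a leak channel opened by stretch and fatty acids. It had 25.6, 36.7, 29.6 and 22.8 CPM in VC tumours and 3.56, 21.3, 11.6 and 9.39 CPM in miR-21-KD tumours, and replicate 2 of the miR-21-KD group came close to the lowest VC tumour. Its log2 fold change of -1.32 ± 0.44 just passed (adjusted p = 0.0426), and the call was lost without VC replicate 1 (0.0641), 2 (0.102) or 3 (0.0897), without miR-21-KD replicate 3 (0.0896) or 4 (0.105), and without the filter on low counts (0.0589).

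Kcnk1 (TWIK-1) and Kcnk13 (THIK-1, a leak channel of microglia) were not called. Kcnk1 had 6.05, 3.67, 5.20 and 2.86 CPM in VC tumours and 8.97, 3.77, 8.85 and 13.6 CPM in miR-21-KD tumours, and Kcnk13 had 5.75, 6.38, 3.78 and 9.16 against 12.5, 5.74, 13.8 and 12.8. In both genes 3 miR-21-KD tumours were higher than the top VC tumour and replicate 2 lay among the VC tumours. The log2 fold changes were 0.98 ± 0.39 (adjusted p = 0.0728) and 0.84 ± 0.34 (0.0757), and without miR-21-KD replicate 2 the adjusted p-values were 0.0122 and 0.0156. Replicate 2 was also the lowest miR-21-KD tumour for 5 of the 8 called higher genes, and replicate 3 for the other 3.

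No inward rectifier was called by edgeR, beside 39.1% of all genes, with only 5 of 15 members tested and 4 without a count. At an unadjusted p under 0.05 there was 1, Kcnj8, which DESeq2 also called (log2 fold change -0.81, adjusted p = 0.0402), and limma-voom called 0. Kcnj8 encodes Kir6.1, the pore of the vascular ATP-sensitive (KATP) channel. It had 9.07, 8.22, 6.62 and 16.2 CPM in VC tumours and 7.76, 5.74, 5.19 and 3.76 CPM in miR-21-KD tumours, with overlap through miR-21-KD replicate 1, and a log2 fold change of -0.84 ± 0.32 (adjusted p = 0.0673). Kcnj15 (Kir4.2) had 16.0, 4.87, 7.33 and 9.07 CPM against 14.3, 21.3, 11.1 and 8.84 CPM, with a log2 fold change of 0.57 (adjusted p = 0.261). The groups of Kcnj15 overlapped widely. Kcnj2 (Kir2.1), Kcnj10 (Kir4.1) and Kcnj14 (Kir2.4) had log2 fold changes of -0.35, -1.02 and 1.00, with adjusted p-values of 0.312, 0.381 and 0.113. The class sum was 34.9 ± 9.99 CPM in the VC group and 32.6 ± 7.59 CPM in the knockdown group.

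Kcnj11, the Kir6.2 pore of the KATP channel of pancreatic beta cells and neurons, was too low to be tested. Its counts were 2, 0, 1 and 1 in VC tumours and 7, 6, 18 and 9 in miR-21-KD tumours, so the groups did not overlap. The 4 VC counts against 40 gave a ratio of 10.2 with an exact counting interval of 3.67 to 39.1. When no gene was filtered, edgeR gave it a log2 fold change of 3.17 ± 0.67 (adjusted p = 0.0115). KATP channels need a sulphonylurea receptor beside the pore, and both receptors were on the list of partner genes. Abcc8, the receptor SUR1 that pairs with Kir6.2, was higher, with 0.147, 0, 0 and 0.163 CPM in VC tumours and 1.29, 1.34, 3.90 and 2.66 CPM in miR-21-KD tumours. Its counts were 4 in all against 115, a ratio of 29.2 with an interval of 11.1 to 109. Its adjusted p was 0.00573, but it passed the filter on low counts through the miR-21-KD tumours alone and could only come out higher. Abcc9, the receptor SUR2 that pairs with Kir6.1 and that was chosen for mention after its values were seen, had 21.7 ± 7.04 and 21.9 ± 9.24 CPM (log2 fold change 0.01, adjusted p = 0.980).

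Of the 8 pore genes of the calcium-activated family, which also holds the sodium-activated Kcnt1 and Kcnt2 and the pH-sensitive Kcnu1, 3 were tested and 1 was higher (33.3%, against 19.6% of all genes), a gene that passed the filter through the miR-21-KD tumours alone. Kcnma1 (Entrez 16531, chr14:23292288-24005110, minus strand) encodes the large-conductance BK channel, which is prominent in smooth muscle. It had 0.442, 0.239, 0.0788 and 0.409 CPM in VC tumours and 1.45, 0.865, 3.81 and 3.21 CPM in miR-21-KD tumours. The groups did not overlap, and the log2 fold change was 2.95 ± 0.61 (adjusted p = 0.01002), the next largest after Kcnd3. Its 15 VC counts against 117 gave a ratio of 7.93 with an interval of 4.62 to 14.6. Kcnmb1, the smooth muscle beta subunit of BK and the single tested gene among 4 such subunits, had 1.33, 1.83, 0.946 and 1.47 CPM in VC tumours and 3.07, 2.28, 2.03 and 1.96 CPM in miR-21-KD tumours. Its groups did not overlap either, but its log2 fold change of 0.74 ± 0.27 missed the threshold (adjusted p = 0.0590). With at least 10 counts required in every tumour, Kcnmb1 was called (log2 fold change 0.79, adjusted p = 0.0353). Lrrc26, a gamma subunit that lets BK open in epithelial cells without a rise in calcium, was a partner gene outside the Kcn names. It had 0.0737, 0, 0.0788 and 0.0817 CPM in VC tumours and 2.75, 1.18, 4.46 and 6.89 CPM in miR-21-KD tumours, with an adjusted p of 0.00501. The 3 VC counts against 192 gave a ratio of 65.1 with an interval of 21.9 to 318. Like Kcnma1, it passed the filter through the miR-21-KD tumours alone and could only come out higher.

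Beside these BK subunits, the smooth muscle and pericyte markers summed to 328 to 476 CPM in VC tumours and to 549 to 861 CPM in miR-21-KD tumours, with 8 of 11 higher, 0 lower and no marker at 0. Their part in the result was not tested. Kcnn4 had 67.4, 76.7, 95.8 and 76.8 CPM in VC tumours and 35.6, 94.4, 63.1 and 61.8 CPM in miR-21-KD tumours. Of the miR-21-KD tumours, 3 lay below the VC range and replicate 2 lay within it, with a log2 fold change of -0.31 ± 0.26 (adjusted p = 0.352). Kcnn1, the small-conductance channel SK1, had 0.442, 0.0798, 0.630 and 1.14 CPM against 2.02, 0.786, 1.06 and 1.80 CPM. Its groups overlapped, with a log2 fold change of 1.29 ± 0.58 (adjusted p = 0.106, or 0.0467 in the blocked model and 0.0423 without VC replicate 4).

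**Figure D4:**
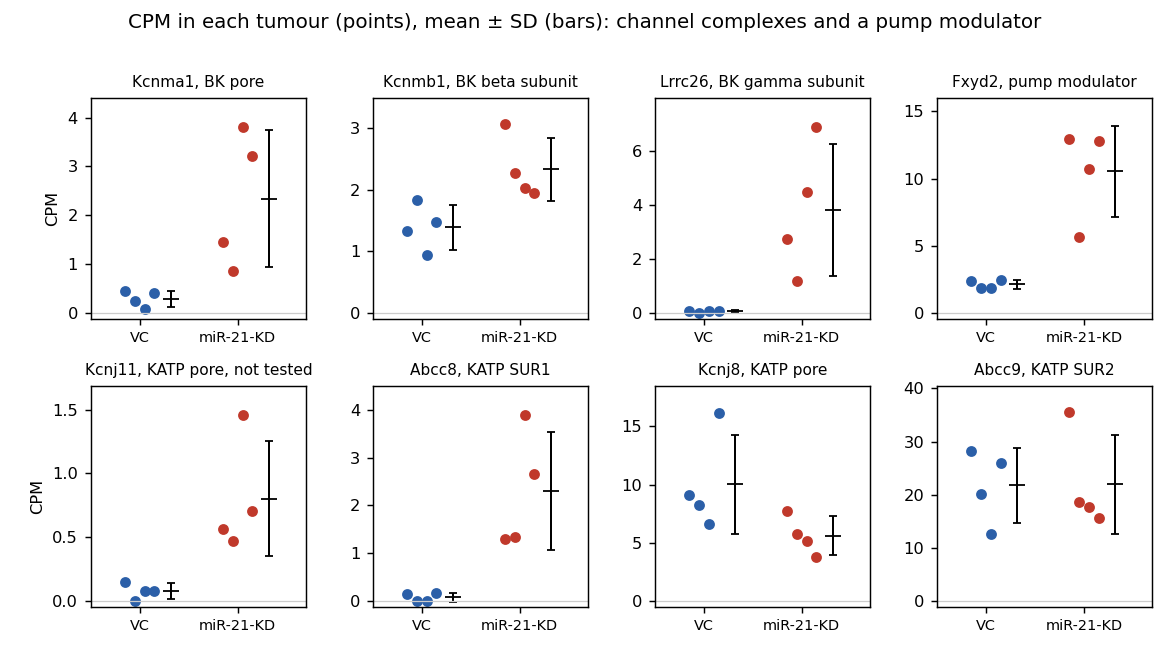
CPM in each tumour (y axis, linear, a separate scale for each gene) of subunits of the BK channel and of the KATP channels and of the pump modulator Fxyd2, VC in blue and miR-21-KD in red, with mean ± SD of 4 tumours. Kcnma1, Kcnmb1, Lrrc26, Fxyd2, Kcnj11 and Abcc8 lie higher in every miR-21-KD tumour than in every VC tumour, and Kcnj8 and Abcc9 overlap.

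The 62 members that were not tested comprised 29 Kv pores, 6 auxiliary Kv subunits, 10 inward rectifiers, 8 two-pore channels, 5 pores of the calcium-activated family, 3 BK beta subunits and Kcnrg. Of these, 37 had at most 3 counts in every tumour. The highest count of any was 24, for the small-conductance channel Kcnn3. Among Kv pores the highest was 19, for Kcna3, the Kv1.3 channel of T lymphocytes and macrophages, which had 4, 1, 7 and 2 counts in VC tumours and 19, 9, 12 and 5 counts in miR-21-KD tumours, with overlap. Kcnip4 reached 9 counts, Kcnj11 18, Kcnk7 8, Kcnmb4 2 and Kcnrg 11, each the highest count of an untested member of its class. Kcna1, Kcng4, Kcnj11 and Kcnk7 had more CPM in every miR-21-KD tumour than in every VC tumour, and 0 untested members had less. This was 8.51% of the 47 untested members with a count, beside 5.59% of all untested genes with a count, of which 1.61% had less in every miR-21-KD tumour. For Kcnk7, the highest VC tumour and the lowest miR-21-KD tumour both had 3 counts and were separated by library scaling only. Members without a count included Kcna10, Kcnb2, Kcnh5, Kcnh6, Kcns2, Kcnv1, Kcne1, Kcnj1, Kcnj3, Kcnj5, Kcnj6, Kcnk15, Kcnk9 and Kcnmb2, many of which serve neurons, heart, kidney or inner ear.

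Other genes that build potassium channels or move potassium were taken from a list of 51, of which 34 were tested, 13 were higher (38.2%, against 19.6% of all genes) and 3 lower (8.82%, against 19.5%). Of the 13, Lrrc26, Abcc8 and Hcn4 passed the filter on low counts through the miR-21-KD tumours alone. The median log2 fold change of the 34 was 0.20. The lowest adjusted p-values among the higher ones belonged to Lrrc26, Abcc8 and Fxyd2, a modulator of the sodium-potassium pump. Fxyd2 had 2.36, 1.83, 1.89 and 2.45 CPM in VC tumours and 12.9, 5.66, 10.7 and 12.8 CPM in miR-21-KD tumours, without overlap, with a log2 fold change of 2.30 ± 0.29 (adjusted p = 0.00501). Tmem38a, a potassium channel of the sarcoplasmic reticulum that balances calcium release, and Stk39, the kinase SPAK that controls chloride cotransporters, were among the lower genes, with log2 fold changes of -0.86 (adjusted p = 0.0121) and -0.40 (adjusted p = 0.0183).

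Markers of several other cell types also differed between the groups. The T cell markers summed to 203 to 470 CPM in VC tumours and 510 to 922 CPM in miR-21-KD tumours (10 of 15 tested higher, 0 lower), and the macrophage and monocyte markers to 3320 to 5214 and 7272 to 11524 CPM (10 of 12 higher, 0 lower). The fibroblast markers summed to 3051 to 8114 and 10527 to 23713 CPM (8 of 9 higher, 0 lower), and the adipocyte markers to 129 to 471 and 700 to 1924 CPM (9 of 9 higher). With smooth muscle these were the 5 of 13 marker lists whose sum was higher in every miR-21-KD than in every VC tumour, and 0 lists were lower in this way. Sums of the other lists overlapped between the groups. They were 313 to 880 and 418 to 942 CPM for neutrophils (1 of 9 higher), 237 to 546 and 396 to 561 for mast cells (1 of 8), 488 to 819 and 703 to 1001 for endothelium (2 of 10), and 156 to 197 and 161 to 261 for Schwann cells and neurons (2 of 7). Luminal epithelium markers summed to 1467 to 2267 and 1103 to 2399 CPM (11 of 15 higher, 1 lower). Krt8 and Krt18 held 90.2% of the mean VC sum and had log2 fold changes of -0.88 (adjusted p = 0.0870) and -1.15 (0.0374), while the median of the list was 1.93, so the sum and most members ran opposite ways. Summed CPM was 16.1 to 90.2 and 41.0 to 328 for basal and squamous markers (4 of 7 higher, 1 lower). The sums were 9.65 to 13.8 and 7.95 to 15.3 CPM for skeletal muscle (1 of 4 higher, 1 lower) and 2.23 to 166 and 9.82 to 89.2 CPM for B cells (0 of 4 called by edgeR, DESeq2 or limma-voom, and 0 at an unadjusted p under 0.05). VC replicate 4 and miR-21-KD replicate 4 held the 2 highest B cell sums. In the blocked model 3 of 9 neutrophil, 11 of 11 smooth muscle, 13 of 15 T cell, 12 of 15 luminal, 5 of 7 basal, 3 of 10 endothelial and 3 of 7 Schwann cell and neuron markers were higher, 2 luminal markers and 1 endothelial marker were lower, and the counts of the other lists were as above. Snap25 of the neuron markers was the single marker at 0 in all tumours. The part of these cell types in the channel results was not tested.

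**Figure D5:**
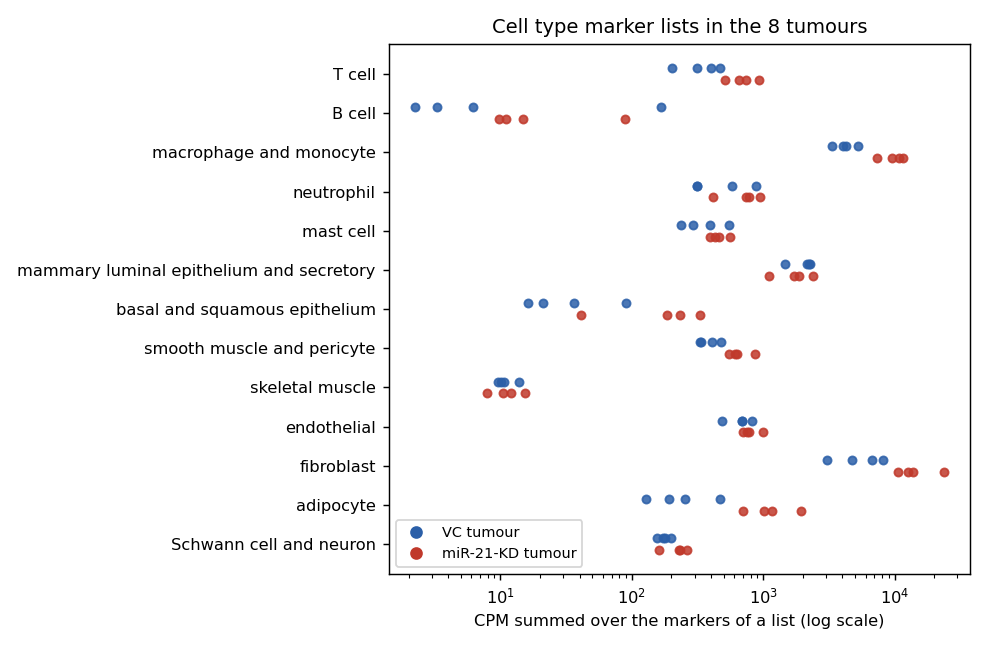
CPM summed over each list of cell type markers in each tumour (x axis, log scale), with 1 point per tumour, VC in blue and miR-21-KD in red. The sums for T cells, macrophages, smooth muscle, fibroblasts and adipocytes lie higher in all 4 miR-21-KD tumours than in all 4 VC tumours.

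Among the called members, Kcnd1, Kcnd3, Kcnip3, Kcnk3, Kcnk5, Kcnk6 and Kcnma1 kept their call when each of the 8 tumours was left out in turn. The exons of Kcnd3, Kcnab1, Kcne3, Kcnk2, Kcnk3 and Kcnma1 overlap those of another gene in the annotation over 0.506% to 12.2% of their length, with the largest share for Kcnk2. Whether the counting used strand is not given in the sources used here, so reads of the overlapping parts could not be assigned.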

How the data were processed

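Whole tumours were sequenced (4 VC, 4 miR-21-KD). The deposited table holds raw read counts without normalization, in 1 row for each Entrez identifier and 1 column for each tumour. The submitters' processing notes name Subread, featureCounts, edgeR, limma and the build mm10, without versions, and whether strand was used in counting is not given in the sources used here. Per-sample columns that belong to none of these tumours numbered 0. Symbols, gene positions and miR-21a-5p came from the RefSeq tables of GRCm38.p6 (25275 of 27179 identifiers matched), and exon lengths and 3′ UTRs from GENCODE M21. Replicates are separate tumours of a group, and no pair within a group was alike within sampling noise (chi-square per degree of freedom of at least 13.3).

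The filter on low counts was filterByExpr given the groups, with a smallest count of 10, a smallest total of 15 and a resulting cutoff of 0.793 CPM, and it left 14382 genes. In R 4.3.3, edgeR 4.0.16 scaled libraries by TMM and fitted all 8 tumours with the group alone in the robust quasi-likelihood test, with Benjamini-Hochberg adjustment over all genes tested and a threshold of 0.05. CPM uses the TMM-scaled library size. The code was tested on simulated data. Alternatives used DESeq2 1.42.0, limma-voom (limma 3.58.1), other scalings, filters and thresholds, a replicate block and each tumour left out. Tumours with the same replicate number deviated from their group means together (correlations of 0.175 to 0.421 over 4 pairs, mean 0.311, against a mean of -0.10 over 12 other pairs), and the labels do not say what the number shares. Counting intervals and limits cover counting error only.

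The members, the lists of partner genes and cell type markers, and the tests were chosen with earlier results of these data known. Every called member was to be named. Some genes of the counts are not reported here by name or in the plots. Values in each tumour were given for the 4 called members of smallest adjusted p and the 2 of highest level per kilobase in each class and for the 5 largest fold changes, and the 3 partner genes of smallest adjusted p were named in each direction. Other members were added after their values were seen.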

Additional observations from a re-analysis of the deposited data

Results flagged for a closer look

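In 80 sets of 4 tumours, which covered the tested members and the class sums in each group, 1 tumour stood far from the other 3 in 7 cases by Dixon's criterion, and chance gives about 1 in 20. Kcna5 reached 4.04 CPM in miR-21-KD replicate 1, against 1.95 to 2.28 in the others of its group. Kcnh1 reached 3.83 CPM in VC replicate 1, against 0.817 to 1.26. VC replicate 4 was the high tumour for Kcnh3 (1.96 CPM, against 1.52 to 1.58), for Kcnj10 (6.54 CPM, against 1.02 to 1.83) and for Kcnrg (0.572 CPM, against 0.0737 to 0.158). Kcnj2 was low in VC replicate 3, at 7.09 CPM against 11.9 to 12.9. Kcnk13 was low in miR-21-KD replicate 2, at 5.74 CPM against 12.5 to 13.8. None of these 7 was a called gene.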

How the results depend on the processing

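The potassium channel genes higher and lower numbered 8 and 4. They became 2 and 4 with at least 10 counts required in every tumour, which left 18 members, 3 and 1 at an adjusted p under 0.01, and 3 and 0 in edgeR's test of a change above 1.5-fold, in which 4 were lower at an unadjusted p under 0.05. Leaving out each tumour in turn gave 6 to 11 higher and 2 to 5 lower, with 2 lower without VC replicate 2 or 3. Partner genes, 13 higher and 3 lower, became 4 and 1 at an adjusted p under 0.01 and 4 and 0 for a change above 1.5-fold (2 lower at an unadjusted p under 0.05), and 7 to 15 higher and 2 to 4 lower with a tumour left out, 7 without VC replicate 3. Over all genes, 2826 higher and 2800 lower became 670 and 756 at an adjusted p under 0.01, 334 and 208 for a change above 1.5-fold, and 1449 to 3290 and 1487 to 3550 with a tumour left out. The replicate block gave 9 higher and 5 lower channel genes, adding Kcnh3 and Kcnn1, and changed no other call among them. DESeq2 called 15 channel genes, adding Kcnj8, Kcnk1 and Kcnk13, and limma-voom 14, adding Kcnh3 and Kcnq5. The shares of all genes called by these tools, or with at least 10 counts in every tumour, are not given here. These counts therefore do not show a gain particular to channel genes. Of 474 values of 27 named genes, 434 kept direction and side of the threshold, 34 lost the call, 4 gained it and 2 changed sign, both for Kcna5, which ranged from -0.16 to 0.35 with a tumour left out (-0.14 without VC replicate 3 and -0.16 without miR-21-KD replicate 1). The 474 values leave out the threshold of 0.01, at which 8 called members lost the call, and genes that a filter removed. The cause of the changes between settings was not tested. Members below the filter have few counts, and their ratios have wide counting intervals.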
